A study of Mus musculus with 8 samples.

Results

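The 37 genes described here are known for their expression in the choroid plexus, and they were measured in RNA from mouse striatum. All 37 were found in the count table of 31417 genes. They were chosen by their pattern in CPM (counts scaled to the library's total) over these same 8 libraries, with transthyretin (Ttr) as the gene the others were set against, so how closely they follow Ttr is a description and not a test. The list was drawn up with values of these libraries in view.

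The choroid plexus is a fringe of epithelium around a core of vessels and stroma that hangs into the brain ventricles and secretes cerebrospinal fluid. Its epithelial cells move ions and water through an unusual set of transporters and channels, and they secrete carrier proteins such as transthyretin. The plexus of the lateral ventricle lies beside the striatum, the input nucleus of the basal ganglia, without being part of it. Many of its genes have little or no expression in neurons, while others are also used by oligodendrocytes, meningeal cells, vessels or neurons.

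The study sequenced poly(A)-selected RNA in 4 libraries from Dclk3 knockout (KO) mice and 4 from wild-type (WT) control mice, all 12 months old, with RNA from a single striatum in each library. The labels do not say that the striata of a genotype came from separate animals, so p-values measure only the spread between these samples. Dclk3 encodes doublecortin-like kinase 3. The sources used here do not give the strain, the sex, the part of Dclk3 that was deleted or whether it was deleted in all cells. Total counts ran from 24441242 to 37145559 per library, Dclk3 was at 19.5 to 27.7 CPM in KO libraries and at 82.5 to 117 CPM in WT libraries, and spiny neuron markers summed to 3549 to 4080 CPM in KO libraries and 3565 to 4307 CPM in WT libraries.

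WT replicate 4 stood apart from the other 7 libraries in these genes, and KO replicate 1 stood apart to a smaller degree. All 37 genes were highest in WT replicate 4, where 11.8% of the 16511 genes tested were highest. In 31 of the 37 it was at least 2-fold above every other library, against 0.363% of the genes tested. The genes tested are those that passed a filter on low counts, which Wfdc2, Slco1a5, Cldn2, Krt8 and Steap1 did not. Each of these was at least 2-fold up, so the count and the share do not cover like sets. The same limit holds wherever a count over a whole list is set beside a share of the genes tested. Summed over the 37 genes, KO replicates 1 to 4 had 1019, 673, 722 and 743 CPM. WT replicates 1 to 4 had 669, 640, 577 and 5081 CPM, so that the genes took 0.508% of the counts of WT replicate 4. Values are therefore given library by library, and the main results that rest on WT replicate 4 or KO replicate 1 are also given without them. In bulk tissue more choroid plexus cells in a dissection and more RNA per cell cannot be told apart.

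Of the genes with a promoter window in the RefSeq set for GRCm38.p6, 3 are shown because they differ in how they behaved: claudin 2 (Cldn2) and the potassium channel gene Kcnj13 moved with Ttr, and Otx2, which encodes the homeodomain factor that specifies choroid plexus epithelium, moved less steeply. Each window is the 250 bases before the annotated start, written 5′ to 3′ on the gene's strand. The windows are chrX:139800558-139800807 on the plus strand for Cldn2, chr1:87394730-87394979 on the minus strand for Kcnj13, and chr14:48665110-48665359 on the minus strand for 1 of the annotated Otx2 starts. Capitals mark matches, on either strand, to TAATCC (the core bound by OTX factors), TAATTA (a homeodomain core) or TATAAA (the TATA box).
Cldn2: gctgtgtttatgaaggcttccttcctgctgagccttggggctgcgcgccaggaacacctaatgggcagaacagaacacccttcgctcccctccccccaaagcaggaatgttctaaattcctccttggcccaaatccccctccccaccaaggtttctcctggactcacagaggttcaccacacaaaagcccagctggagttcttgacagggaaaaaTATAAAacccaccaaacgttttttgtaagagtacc
Kcnj13: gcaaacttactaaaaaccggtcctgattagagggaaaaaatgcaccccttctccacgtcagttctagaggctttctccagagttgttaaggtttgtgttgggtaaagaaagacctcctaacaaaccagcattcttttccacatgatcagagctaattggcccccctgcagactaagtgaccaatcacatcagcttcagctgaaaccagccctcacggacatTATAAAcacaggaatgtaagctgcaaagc
Otx2: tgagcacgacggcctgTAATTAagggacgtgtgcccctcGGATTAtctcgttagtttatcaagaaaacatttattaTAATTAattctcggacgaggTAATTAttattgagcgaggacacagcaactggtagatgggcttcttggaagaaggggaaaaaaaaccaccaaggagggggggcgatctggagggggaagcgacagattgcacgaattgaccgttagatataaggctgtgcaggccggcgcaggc

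Of the 37 genes, 28 had such a window, 11 of them among the 14 genes that followed Ttr as defined below. TAATCC or its reverse was in a window of 0 of these 11 genes and of 2 of the 17 others, Otx2 and Ace, against 7.21% of 27018 genes with a window. TAATTA was in 0 of the 11 and in 2 of the 17, Otx2 and Cldn1, against 5.65% of genes. The forkhead core TGTTTAC was in 1 of the 11, Prlr, and in 0 of the 17, against 3.54% of genes. The Prlr match was in only 1 of its windows, whose end was not found in an annotated transcript of the gene. Matches were counted per gene over all its windows, 32841 for the 27018 genes. Genes with more annotated starts, such as Otx2, therefore have more chances of a match. TATAAA, a motif added after the windows were seen, was in 3 of the 11 (Kcnj13, Slc4a5 and Cldn2) and in 3 of the 17 (Slco1a5, Otx2 and Ace), against 14.3% of genes. No match means only that these letters are not in this window.

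Ttr, the carrier of thyroxine and retinol in cerebrospinal fluid, set the scale. It was at 207, 32.3, 68.2 and 66.8 CPM in KO replicates 1 to 4 and at 44.6, 64.4, 24.2 and 2669 CPM in WT replicates 1 to 4. WT replicate 4 was 12.9-fold above KO replicate 1, the next highest, and 111-fold above WT replicate 3, the lowest. KO replicate 1 was 3.04-fold above the highest of the remaining 6. Ttr was detected in all 8 libraries, with at least 695 counts.

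**Figure D1:**
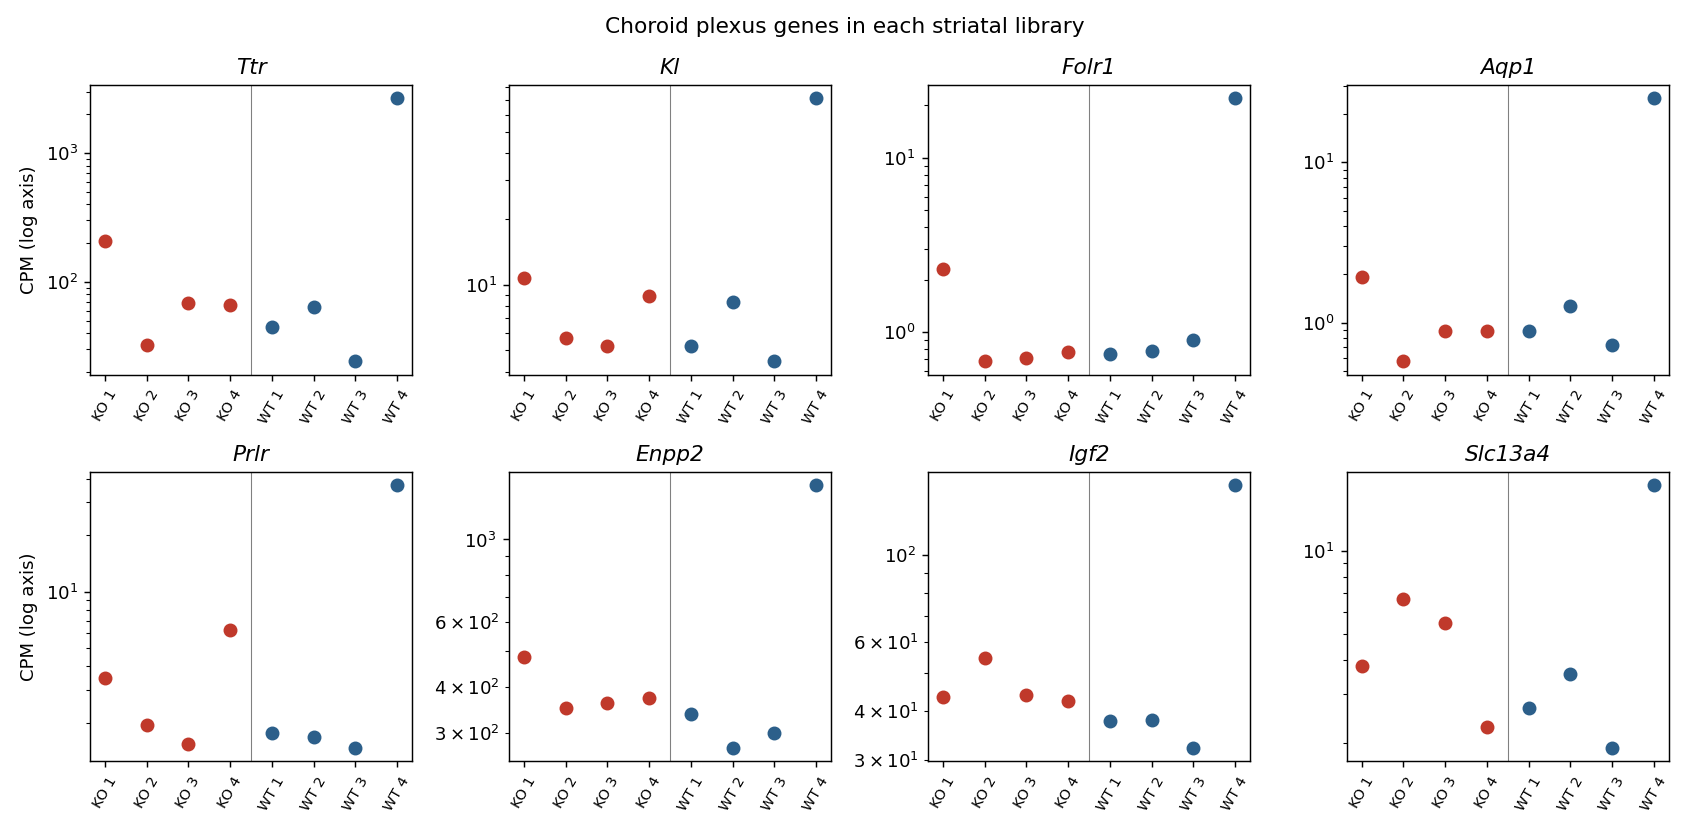
Level of 8 of the genes in each library, in CPM on a log axis, with KO libraries in red on the left and WT libraries in blue on the right; each point is 1 library. WT 4 is highest in all 8 panels, KO 1 is second in Ttr, Kl, Folr1, Aqp1 and Enpp2, and KO 4 is second in Prlr and KO 2 in Igf2 and Slc13a4.

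A gene was said to follow Ttr when its log2 CPM had a Pearson correlation r of at least 0.9 with that of Ttr over the 8 libraries and a slope of at least 0.5, where a slope of 1 means proportional levels. By this measure 14 of the 37 genes followed, Ttr itself included. Of the 32 that passed the filter on low counts 11 followed, against 0.0908% of the 16511 genes that passed it. They were Ttr, Sostdc1, Wfdc2, F5, Kl, Prlr, Folr1, Aqp1, Kcnj13, Kcne2, Slc4a5, Cldn2, Steap1 and Tmem72. The slope was 0.58 for Kl and 0.60 for Sostdc1, just inside the limit, and 0.48 for Otx2 and for Wdr86, just outside. A further 12 genes had an r of at least 0.9 with a shallower slope.

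The correlations rest largely on WT replicate 4. Over the 37 genes the median r was 0.94 with all 8 libraries, 0.70 without WT replicate 4, and 0.33 without WT replicate 4 and KO replicate 1, the pair farthest from the median of Ttr. Over all genes tested the medians were -0.092, -0.050 and -0.077. Without WT replicate 4 the genes that followed were Ttr, Kcne2, Slc4a5 and Cldn2, and without both libraries only Ttr itself remained.

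A straight line of each gene's CPM on Ttr's CPM, with neither term allowed below 0, separated the level at zero Ttr from the part that goes with Ttr. The level at zero Ttr is called the striatal background here, since it is what the line leaves when no Ttr is present. It was under 20% of the gene's mean level in 10 genes, 20% to 50% in 9, 50% to 80% in 11 and at least 80% in 7. WT replicate 4 largely sets these lines and raises the mean, and without it the counts were 4, 5, 7 and 21. The smallest backgrounds, after Ttr, for which it is 0 by construction, were those of Cldn2 (0% with all 8 libraries, 11.2% without WT replicate 4) and Kcne2 (0.75% and 8.47%). Tmem72 followed at 2.46%, but it was at 9.77% when the line was weighted by 1 over the fitted level and at 56.0% without WT replicate 4. Under the same weighting Wfdc2 was at 21.6%, against 6.51% unweighted. All shares given for single genes below are those with all 8 libraries. The genes with the largest were Bmp7 (95.6%), Car12 (92.0%) and Perp (90.4%).

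**Figure D2:**
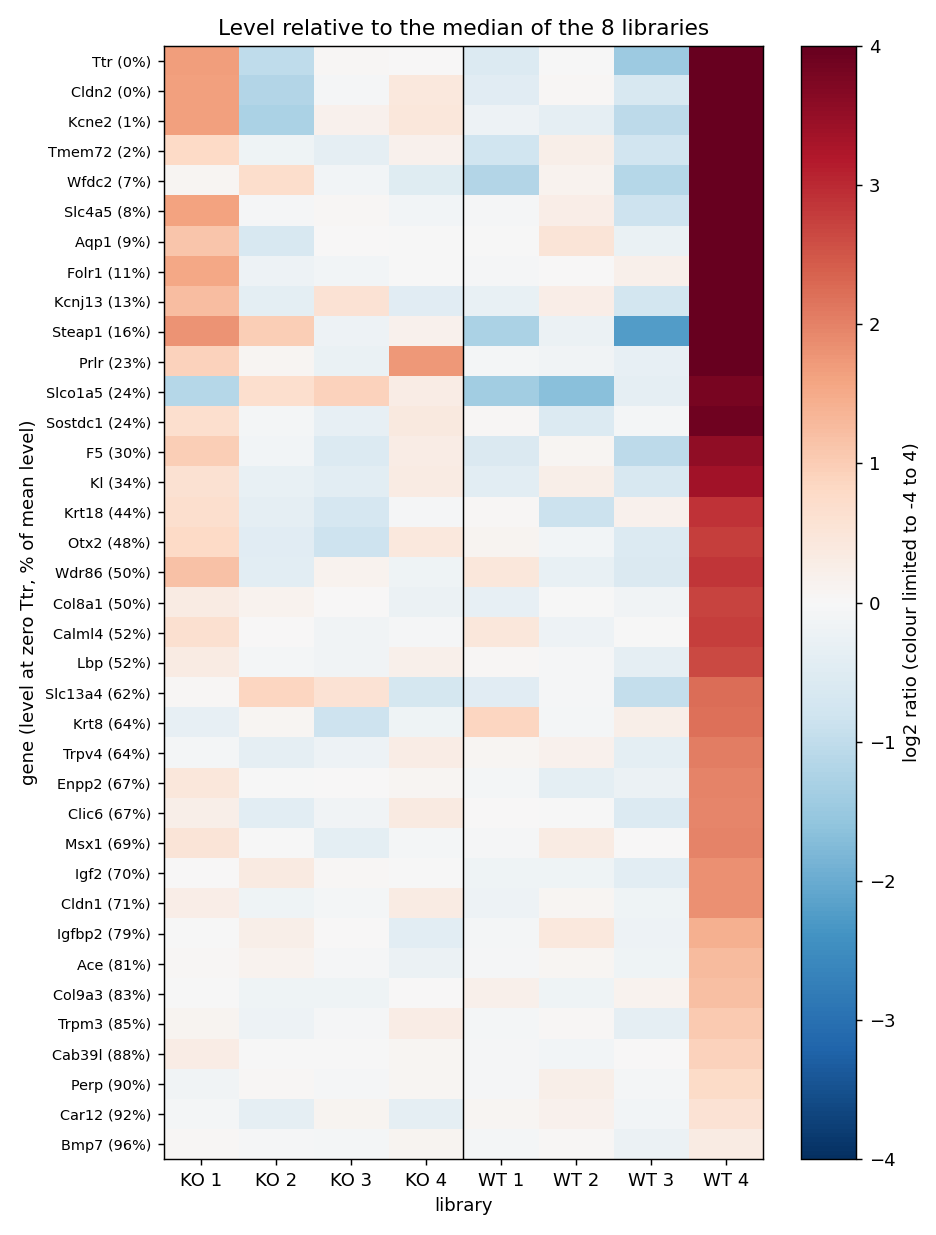
Level of each of the 37 genes in each library as a log2 ratio to the gene's median over the 8 libraries, with KO libraries on the left and WT libraries on the right, and genes ordered by the percentage of their mean level left at zero Ttr. The column of WT 4 is red throughout and pales down the page towards Bmp7, at 96%, and KO 1 is red in most of the upper rows.

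Channels and transporters of the epithelial membranes made up 4 of the 10 genes with a background under 20%: Aqp1, Kcnj13, Kcne2 and Slc4a5. Aqp1, the water channel, was at 1.92, 0.572, 0.888 and 0.881 CPM in KO libraries and at 0.882, 1.26, 0.730 and 25.2 CPM in WT libraries. Kcnj13, which encodes the inward rectifier Kir7.1, was at 1.76, 0.572, 1.12 and 0.551 CPM in KO libraries and at 0.610, 0.897, 0.452 and 17.6 CPM in WT libraries. KO replicate 1 came second to WT replicate 4 for both genes, and the KO and WT libraries overlapped. Kcnj13 shares 623 exon bases on the opposite strand with Gigyf2, which averaged 73.3 CPM. Whether reads were counted by strand is not known, so its level at zero Ttr is uncertain.

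Kcne2, a potassium channel subunit, was at 1.35, 0.179, 0.487 and 0.588 CPM in KO libraries and at 0.373, 0.336, 0.209 and 17.8 CPM in WT libraries. It had the steepest slope after Ttr, 0.92 on the log2 scale. Slc4a5, a sodium bicarbonate cotransporter, had 42, 15, 20 and 14 counts in KO libraries and 16, 24, 9 and 656 counts in WT libraries. Cldn2, the claudin that makes tight junctions leaky to cations, had 25, 4, 11 and 12 counts in KO libraries and 7, 12, 6 and 566 counts in WT libraries. In all 3 genes KO replicate 1 was second to WT replicate 4, and background was at most 7.84% of the mean level.

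Other channel and transporter genes kept a level of their own in all libraries. Clic6, an intracellular chloride channel family gene, was at 15.3, 9.66, 11.8 and 16.7 CPM in KO libraries and at 13.2, 12.9, 8.93 and 50.2 CPM in WT libraries, with a background of 66.8%. Trpm3, a cation channel gene that neurons also express, was at 44.5 to 62.8 CPM in KO libraries and at 40.0 to 106 CPM in WT libraries, with a background of 85.2%. Car12, a membrane carbonic anhydrase, was at 32.4 to 45.6 CPM in KO libraries and at 38.5 to 62.3 CPM in WT libraries. For these genes WT replicate 4 was 2.99-fold (Clic6), 1.69-fold (Trpm3) and 1.33-fold (Car12) above the next library. Trpv4, an osmosensitive cation channel gene, had a background of 64.2%.

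Slc13a4, a sulphate transporter gene also known from the meninges, did not order the libraries as Ttr did, and it was not alone in this. Its Spearman's rho with Ttr was 0.55. Among the genes that followed, other than Ttr, rho ran from 0.45 (Wfdc2) to 0.93 (Kcne2). It was at 3.81, 6.69, 5.47 and 2.28 CPM in KO replicates 1 to 4 and at 2.68, 3.56, 1.91 and 17.4 CPM in WT replicates 1 to 4. After WT replicate 4 the highest libraries were KO replicates 2 and 3, of which KO replicate 2 was low in Ttr, and r fell to 0.18 without WT replicate 4. Among meningeal fibroblast genes, picked after their values were seen, Ogn was at 3.56, 4.58, 5.53 and 3.23 CPM in KO libraries and at 2.00, 2.52, 1.88 and 7.67 CPM in WT libraries. The GABA transporter gene Slc6a13 was at 6.79, 7.76, 9.05 and 6.24 CPM in KO libraries and at 5.93, 6.73, 4.69 and 8.70 CPM in WT libraries. The whole list of 16 markers did not show this order, with sums of 150, 173, 150 and 169 CPM in KO replicates 1 to 4 and 145, 164, 128 and 187 CPM in WT replicates 1 to 4. The part of these cells in the level of Slc13a4 was not tested. Slco1a5, an organic anion transporter gene, had 1, 4, 6 and 3 counts in KO libraries and 1, 1, 2 and 46 counts in WT libraries, so outside WT replicate 4 it was close to the floor of 3 counts.

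The receptor genes followed Ttr. Folr1, the folate receptor that loads folate into cerebrospinal fluid, was at 2.29, 0.680, 0.716 and 0.771 CPM in KO libraries and at 0.746, 0.785, 0.904 and 22.0 CPM in WT libraries. Outside WT replicate 4 and KO replicate 1 its 6 values spanned only 0.680 to 0.904 CPM. Kl, which encodes klotho, the co-receptor of FGF23, was at 10.8, 5.69, 5.24 and 8.85 CPM in KO libraries and at 5.22, 8.30, 4.45 and 71.3 CPM in WT libraries. Its background, 34.2% of the mean level, was the highest of the 14 genes that followed.

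The prolactin receptor gene Prlr followed too, but with another library in second place. It was at 3.48, 1.93, 1.55 and 6.21 CPM in KO libraries and at 1.76, 1.68, 1.46 and 37.2 CPM in WT libraries. KO replicate 4, with Ttr at 66.8 CPM, thus came second, above KO replicate 1. Thalamic and other subcortical glutamatergic markers, all 10 of which were measured, summed to 573 CPM in KO replicate 4, to 206 to 364 CPM in the other KO libraries, and to 207 to 326 CPM in WT libraries. KO replicate 4 stood out in other lists too. Of the 8 libraries it had the highest sums of endothelial (488 CPM) and oligodendrocyte (11297 CPM) markers and the lowest of cortical glutamatergic markers (917 CPM). The part of any of these cells in the level of Prlr was not tested. Prlr shares 203 exon bases on the same strand with the annotated gene Gm21973, which is not among the genes counted, so its level is uncertain.

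Among genes of secreted proteins, Enpp2 had the highest level at zero Ttr. Enpp2 encodes autotaxin, which makes lysophosphatidic acid and is also abundant in oligodendrocytes. It was at 482, 350, 361 and 372 CPM in KO libraries and at 337, 273, 301 and 1404 CPM in WT libraries, and the level at zero Ttr was 324 CPM. Oligodendrocyte markers, 12 of 12 measured, summed to 9438 to 11297 CPM in KO libraries and to 7793 to 10585 CPM in WT libraries, and WT replicate 4, at 8250 CPM, was the second lowest of the 8. The part of oligodendrocytes in the level of Enpp2 was not tested.

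Igf2, an insulin-like growth factor made by choroid plexus and meninges, was at 43.5, 54.7, 44.1 and 42.4 CPM in KO libraries and at 37.7, 37.9, 32.2 and 151 CPM in WT libraries. Its binding protein gene Igfbp2 was at 13.2, 15.7, 13.5 and 9.88 CPM in KO libraries and at 12.7, 18.0, 11.6 and 35.7 CPM in WT libraries. WT replicate 2 was second for Igfbp2 and KO replicate 2 for Igf2, and KO replicate 1 lay within the range of the other 6 libraries for both genes. The backgrounds were 69.9% for Igf2 and 79.3% for Igfbp2. Igf2 shares exons on the same strand with the annotated gene Gm49394, which is not among the genes counted, so its level is uncertain.

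Sostdc1, an antagonist of BMP and Wnt ligands, followed Ttr, with 1.96, 1.18, 0.974 and 1.62 CPM in KO libraries and 1.29, 0.841, 1.18 and 18.3 CPM in WT libraries. F5, the gene of coagulation factor V, did so too, with 3.72, 1.75, 1.29 and 2.28 CPM in KO libraries and 1.25, 1.99, 0.904 and 21.8 CPM in WT libraries. Wfdc2, a secreted protease inhibitor family gene, had 3 to 7 counts in KO libraries, 2 to 6 counts in WT replicates 1 to 3 and 141 counts in WT replicate 4. Lbp, the lipopolysaccharide-binding protein gene, had a background of 52.2%, and the growth factor gene Bmp7, at 10.3 to 11.7 CPM in KO libraries and 9.28 to 13.8 CPM in WT libraries, hardly varied.

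Both transcription factor genes were present at a low level in every library. Otx2 was at 2.33, 0.966, 0.745 and 1.76 CPM in KO libraries and at 1.42, 1.23, 0.904 and 9.07 CPM in WT libraries, with KO replicate 1 second. Msx1, a homeobox gene downstream of BMP signalling, was at 1.20 to 2.29 CPM in KO libraries and at 1.53 to 6.22 CPM in WT libraries. The level at zero Ttr was 48.4% of the mean for Otx2 and 68.8% for Msx1, far above that of Cldn2 or Kcne2. Overlapping Otx2 transcripts on the opposite strand averaged 0.0628 CPM. Otx2 also shares 168 exon bases on the same strand with the annotated gene Gm49154, which is not among the genes counted, so its level is uncertain.

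Junction and keratin genes divided. The tight junction gene Cldn1 was at 2.00 to 2.86 CPM in KO libraries and at 2.00 to 8.13 CPM in WT libraries, with a background of 70.6%, against 0% for Cldn2. The epithelial keratin gene Krt18 had 18, 10, 10 and 12 counts in KO libraries and 14, 9, 15 and 126 counts in WT libraries. Its partner Krt8 had 4, 6, 4 and 5 counts in KO libraries and 11, 7, 7 and 35 counts in WT libraries. The desmosomal gene Perp had a background of 90.4%.

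Of the matrix genes, Col8a1 was at 2.64 to 3.89 CPM in KO libraries and at 2.48 to 20.1 CPM in WT libraries, and Col9a3 at 13.1 to 15.02 CPM in KO libraries and 13.3 to 34.5 CPM in WT libraries. Ace, the angiotensin-converting enzyme, which endothelium and spiny neurons also express, was at 24.9 to 31.9 CPM in KO libraries and at 26.1 to 70.3 CPM in WT libraries, with a background of 81.2%. Cab39l, a scaffold of the LKB1 kinase, was at 46.2, 37.1, 37.6 and 40.1 CPM in KO libraries and at 36.8, 35.2, 37.7 and 70.9 CPM in WT libraries. It shares 261 exon bases with Cdadc1 on the opposite strand, which averaged 38.7 CPM. The background was 49.7% for the WD-repeat gene Wdr86 and 51.8% for the calmodulin-like gene Calml4.

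Tmem72, a membrane protein gene, had 38, 22, 24 and 27 counts in KO libraries and 15, 37, 15 and 1059 counts in WT libraries. At 18.3-fold, it had the largest excess of WT replicate 4 over the next library among the 37 genes. Steap1, a metalloreductase family gene, had 14, 9, 5 and 5 counts in KO libraries and 2, 5, 1 and 145 counts in WT libraries.

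Because KO replicate 1 came second in Ttr, its level was set against the line fitted to the other 7 libraries. For 27 of the 36 genes other than Ttr the fitted level lay within the 95% exact Poisson interval of the count in KO replicate 1, which covers counting error only. In 10 of these 27 the level at zero Ttr alone also lay within the interval, so the comparison says nothing of a Ttr part there. In the other 17, among them Folr1, Cldn2, Kcne2, Aqp1, Kcnj13, Slc4a5 and Kl, only the line with its Ttr part did. For Igfbp2 only the level at zero Ttr lay within it. Since the genes were chosen by their pattern in these libraries, this is a description. The ratio of the measured to the fitted level had a median of 0.983 and ran from 0.253 (Slco1a5, 1 count) to 1.71 (Wdr86). Folr1 was measured at 2.29 CPM against a fitted 2.04 CPM, Cldn2 at 1.02 CPM against 1.18 CPM, and Kl at 10.8 CPM against 10.2 CPM. In 5 genes, Enpp2, F5, Otx2, Cab39l and Wdr86, the fitted level lay below the interval, and in 4, Igf2, Igfbp2, Prlr and Tmem72, it lay above. KO replicate 1 exceeded all 6 libraries other than WT replicate 4 in 21 of the 37 genes, against 12.4% of the genes tested.

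**Figure D3:**
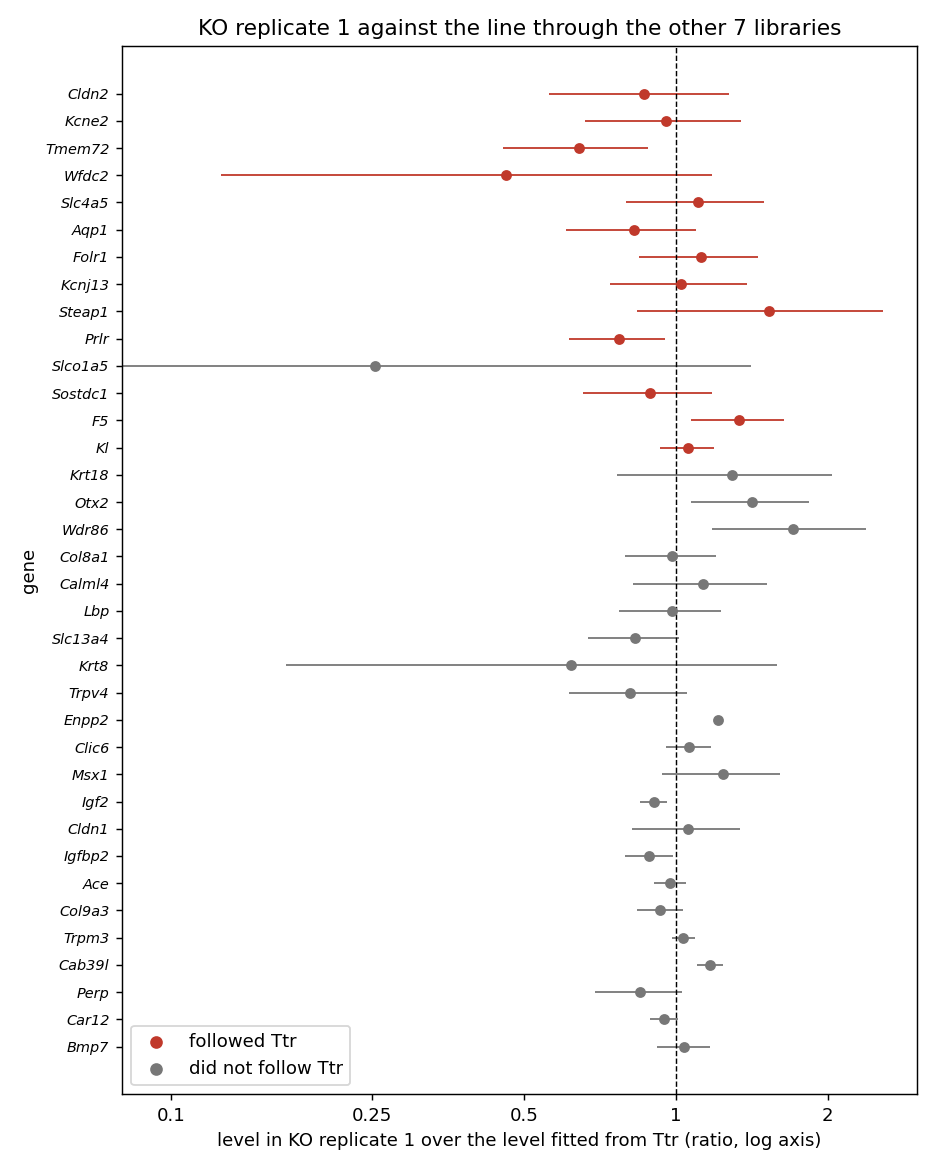
Level measured in KO replicate 1 divided by the level fitted from its Ttr, on a log axis, for the 36 genes other than Ttr, ordered from small background at the top to large at the bottom. Bars are exact 95% Poisson intervals, red points followed Ttr, and the interval includes 1 for 27 genes; that of Slco1a5 runs past the left edge.

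Per kilobase of annotated exon, the line also orders the genes by how much of each goes with Ttr. For every 1000 CPM of Ttr the gain was 843 RPKM (CPM per kilobase of exon) for Ttr itself, 70.3 RPKM for Enpp2, 7.34 RPKM for Igf2 and 5.09 RPKM for Kcnj13. Igfbp2 (4.60), Kcne2 (3.77), Clic6 (3.70), Sostdc1 (3.68), Aqp1 (3.54) and Folr1 (3.53) came next, the last 5 of these spanning only 3.53 to 3.77 RPKM. Slco1a5 was lowest at 0.119 RPKM. With WT replicate 4 left out the gain was 158 RPKM for Enpp2, 2.30 RPKM for Igf2, 5.48 RPKM for Kcnj13 and 3.84 RPKM for Folr1, and it was 0 for 5 genes, Igfbp2, Slco1a5, Krt8, Perp and Col9a3. At zero Ttr, with all 8 libraries, the order was different, with Enpp2 at 56.0 RPKM, Igfbp2 at 6.99, Igf2 at 6.78 and Cab39l at 5.51 RPKM, and Kcne2 at 0.011 RPKM. Exon lengths are unions over all annotated transcripts, which understates genes with long rare exons, such as Tmem72 at 17177 bases.

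Of 40 other genes known from the choroid plexus, 38 were in the table, 33 were tested, and 0 differed between the genotypes past the threshold in either direction. WT replicate 4 was highest in 25 of the 38 and at least 2-fold above every other library in 11, against 11.8% and 0.363% of the genes tested. Those shares cover only genes that passed the filter on low counts, as 33 of the 38 did. The 4 that followed Ttr were Mfrp, a frizzled-related membrane protein gene, Slc16a8, a lactate transporter gene, Prr32 and 1500015O10Rik. Mfrp was at 1.76, 0.25, 0.487 and 0.735 CPM in KO libraries and at 0.644, 0.477, 0.104 and 22.3 CPM in WT libraries. The serotonin receptor gene Htr2c, which choroid plexus and neurons both express strongly, was at 42.8 to 69.4 CPM in KO libraries and at 60.9 to 75.7 CPM in WT libraries and did not follow.

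Tested genes with a mean of at least 1 CPM that are not members were ranked by r with Ttr over the 8 libraries. Genes with only a predicted or clone-based name took no place, among them 1500015O10Rik, which followed Ttr. The 10 most like Ttr were Mfrp (0.98), Mitf, Rdh5, Drc7, Slco1c1, Col4a4, Dnah6, Tbc1d8b, Mdfic and Irf2 (0.94). Mfrp alone of these had a slope above 0.5. Mitf, a transcription factor gene, had a slope of 0.058, with 13.8 CPM in KO replicate 1 and 15.7 CPM in WT replicate 4, the highest. Rdh5, a retinol dehydrogenase gene, was at 1.68 to 2.74 CPM in KO libraries and at 2.02 to 7.73 CPM in WT libraries. The cilium genes Drc7 and Dnah6 reached 13.1 and 4.55 CPM in WT replicate 4.

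Summed over each list, markers of neighbouring cells moved over a much narrower range than Ttr. So did the 38 other choroid plexus genes, which summed to 2376 to 2599 CPM in KO libraries and to 2356 to 2859 CPM in WT libraries. A sum is set mostly by the most abundant genes of its list, so these ranges do not set choroid plexus apart from its neighbours. Ependymal markers, 15 of 15 measured, summed to 35.7 to 52.3 CPM in KO libraries and to 46.6 to 53.4 CPM in WT libraries, with WT replicate 4 highest. WT replicate 4 was highest in 8 of the 15 genes, against 11.8% of all genes tested. It was at least 2-fold above all other libraries in 0, against 0.363%. Meningeal and perivascular fibroblast markers, 16 of 16 measured, summed to 150 to 173 CPM in KO libraries and to 128 to 187 CPM in WT libraries, again with WT replicate 4 highest. WT replicate 4 was highest in 7 of the 16 genes, also above the 11.8% of all genes. In 1, the proteoglycan gene Lum, it was at least 2-fold up, at 5.30 CPM. Endothelial markers, 10 of 10 measured, summed to 370 to 488 CPM in KO libraries and to 311 to 406 CPM in WT libraries, with WT replicate 4 highest in 0. Their part in the member levels was not tested.

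Between the genotypes, 0 of the 37 genes passed the threshold of 0.05 on the Benjamini-Hochberg adjusted p of edgeR's quasi-likelihood fit, where 0.00606% of all genes tested did, and 32 of the 37 passed the filter on low counts. At an unadjusted p of 0.05 the count was 0 of 32, against 3.76% of all genes. The DESeq2 Wald test also gave 0 at an adjusted p of 0.05 and 2 at an unadjusted one (Car12 and Krt8), but returned no p for 21 of the 37. Of the 29416 genes in that test, genes without a p included, 3 passed at the adjusted p and 649 at the unadjusted one. The KO and WT libraries overlapped in all 37 genes, while 1.05% of tested genes were without overlap and higher in KO and 0.884% lower in KO. All 32 fitted log2 fold changes (KO over WT) were below 0, as were 50.5% over all genes, with a median of -1.10 against -0.0011. Without WT replicate 4, 26 of 32 were above 0 and the median was 0.22, against 0.004 over all genes. Without KO replicate 1 as well, 20 were above 0 and 12 below, and the median was 0.10, against 0.0026 over all genes.

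Ttr averaged 93.6 ± 77.5 CPM in KO libraries and 701 ± 1312 CPM in WT libraries (SD, n = 4 each). On the log2 scale KO over WT came to -2.93 (SE 1.78, 95% interval -7.25 to 1.39, adjusted p = 0.999 in edgeR). Exact permutation of the genotypes, with 70 possible assignments and both directions counted, gave p = 0.886, and this design cannot go below 0.0286. Without WT replicate 4 the log2 fold change was 1.07 (95% interval -0.82 to 2.97), and without KO replicate 1 as well it was 0.33, so WT replicate 4 set the sign.

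The log2 fold changes of the other genes turned with WT replicate 4 in the same way. With all 8 libraries they were -1.59 for Kl, -2.53 for Folr1, -2.78 for Aqp1, -2.34 for Kcnj13, -2.93 for Kcne2 and -1.73 for Prlr. Without WT replicate 4 they were 0.34, 0.43, 0.12, 0.59, 1.04 and 0.996 in the same order. Slc13a4 was at -0.51 with all libraries and 0.75 without WT replicate 4. Car12 was below 0 in both fits, at -0.36 and -0.20. No adjusted p passed 0.05 in any of these fits.

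Without WT replicate 4, 2 of the 32 genes, Igf2 and Enpp2, had an unadjusted p below 0.05 in edgeR, against 6.67% of the genes tested, so their number was near that background. The KO libraries lay wholly above the 3 remaining WT libraries in 3 of the 37 genes, Igf2, Enpp2 and Steap1, against 2.95% of genes tested with all libraries, and wholly below in 0, against 4.2%. Steap1 did not pass the filter on low counts. Its lowest KO library, KO replicate 3 at 0.143 CPM, and WT replicate 2, at 0.140 CPM, both had 5 counts, so only depth set them apart. The 4 KO libraries, at 42.4 to 54.7 CPM of Igf2, lay above WT replicates 1 to 3, at 32.2 to 37.9 CPM. The log2 fold change of Igf2 was 0.37 (95% interval 0.15 to 0.59) with an adjusted p of 0.483 in edgeR, against -0.50 with all libraries. The KO libraries, at 350 to 482 CPM of Enpp2, likewise lay above the 3 WT libraries, at 273 to 337 CPM. The log2 fold change of Enpp2 was 0.37 (95% interval 0.11 to 0.64) with an adjusted p of 0.555 in edgeR, against -0.58 with all libraries. Neither passed the threshold.

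**Figure D4:**
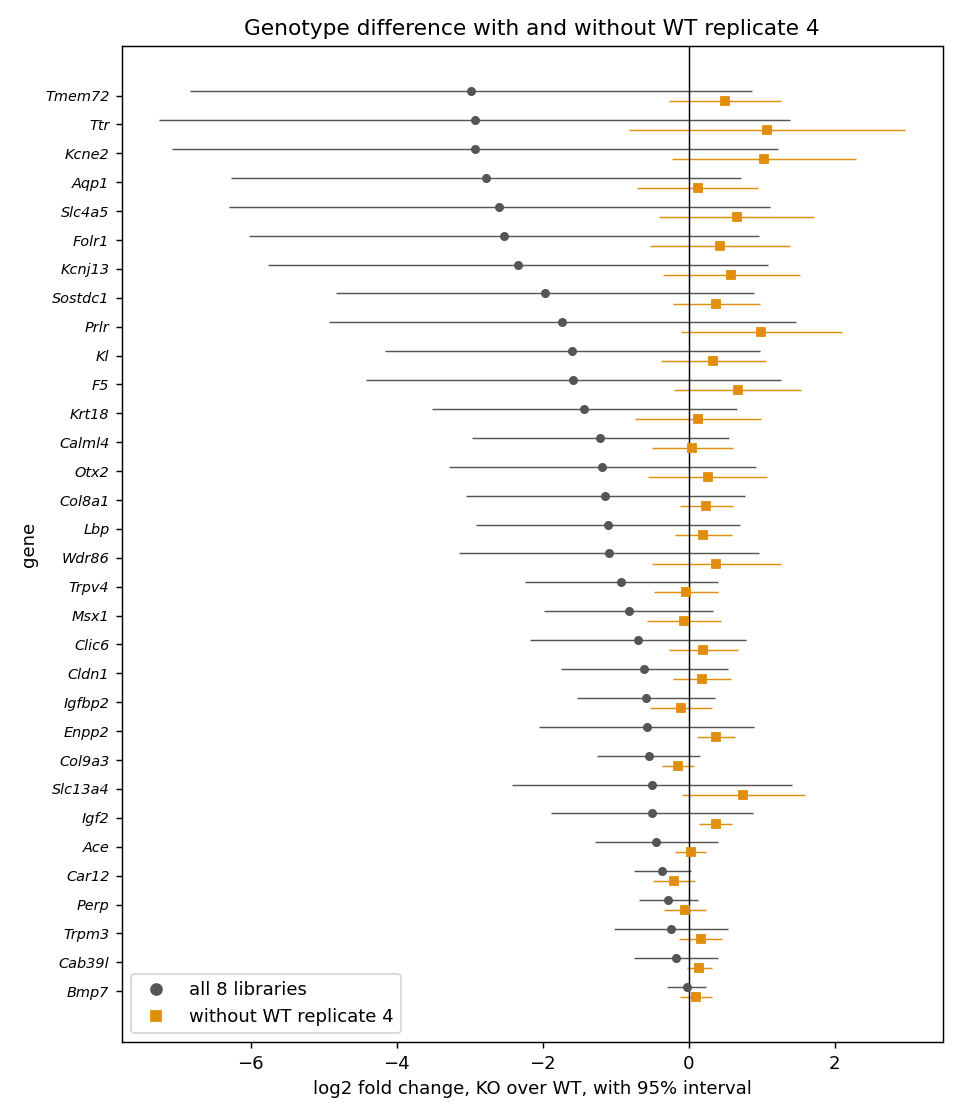
Log2 fold change (KO over WT) with its 95% interval from edgeR for the 32 genes that passed the filter on low counts, with all 8 libraries (grey circles) and without WT replicate 4 (orange squares). All circles lie below 0, 26 of the 32 squares lie above it, and every grey interval includes 0.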

How the data were processed

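Striatal RNA was sequenced in 8 libraries, 4 KO and 4 WT, grouped by the titles in the labels. The authors deposited whole-number read counts per Ensembl gene. Per the labels' protocols, libraries were stranded and poly(A)-selected from 1000 ng of RNA, while the submitters' processing notes name bcl2fastq 2.17.1.14 and the mm10 build. The sources used here give no aligner, counter or strand setting. Symbols and exon lengths came from GENCODE for GRCm38, which matched 31292 identifiers and left 125 unmatched.

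Levels are CPM of the total counts. Differences were fitted on all genes with edgeR 4.0.16 in R 4.3.3 (TMM, filterByExpr with a minimum count of 10, robust quasi-likelihood, 16511 genes), with Benjamini-Hochberg adjustment and a threshold of 0.05. For likeness to Ttr, log2 CPM had a prior count of 2. DESeq2 1.42.0 and other settings are in the closing section, and the scripts were tested on simulated data. Library pairs within a genotype differed by 5.05 to 21.6 chi-square per degree of freedom, so none was a copy. Intervals cover counting error only. The members and lists were chosen with earlier results of these data known. The text names all members, Dclk3, the 10 other genes most like Ttr, and up to 4 genes of each other list by level, with exceptions stated.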

Additional observations from a re-analysis of the deposited data

Results flagged for a closer look

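Groups of 4 libraries were screened for a single library far from the other 3 (Dixon's test at 95%), in 98 groups, and 38 were marked. Chance marks about 1 in 20 groups, and the marks are not independent, since the genes share libraries. The members were also chosen by their pattern in these libraries, so that rate is no measure for their marks, which are a description.

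WT replicate 4 stood far above the other WT libraries in 30 of the 37 genes. In CPM it was at 2669 for Ttr, 1404 for Enpp2, 151 for Igf2, 71.3 for Kl, 70.9 for Cab39l, 70.3 for Ace, 50.2 for Clic6, 37.2 for Prlr, 28.5 for Tmem72 and 25.2 for Aqp1. It was at 22.0 for Folr1, 21.8 for F5, 20.1 for Col8a1, 18.3 for Sostdc1, 17.8 for Kcne2, 17.7 for Slc4a5, 17.6 for Kcnj13, 17.4 for Slc13a4, 15.2 for Cldn2 and 15.1 for Lbp. It was at 10.1 for Trpv4, 9.07 for Otx2, 8.13 for Cldn1, 7.89 for Calml4, 6.22 for Msx1, 4.52 for Wdr86, 3.90 for Steap1, 3.80 for Wfdc2, 3.39 for Krt18 and 1.24 for Slco1a5. The sum over the 37 genes, 5081 CPM, was marked too, as was the ependymal sum, 53.4 CPM.

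Among KO libraries, KO replicate 1 stood far above the other 3 for Enpp2 (482 CPM), Folr1 (2.29), Slc4a5 (1.72) and Calml4 (1.80), and for the astrocyte sum (7672 CPM). KO replicate 2 stood above the other KO libraries for Igf2, at 54.7 CPM.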

How the results depend on the processing

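The count of genes that followed Ttr (14) depended on how likeness was measured. It was 3 with Spearman's rho in place of r, 26 with no minimum slope, 24 with the mean of Kl, Folr1, Clic6 and Kcnj13 in place of Ttr, and between 4 and 15 when 1 library was left out, the 4 without WT replicate 4. Leaving out WT replicate 4 and KO replicate 1 together, a setting chosen after seeing the data, gave 1, which is Ttr. TMM scaling, a prior count of 0.5 and an r of 0.8 each gave 14. The genes were not always the same: Wdr86 took the place of Wfdc2 with the prior count of 0.5, and Krt18 did so without WT replicate 3. The number of all genes past the threshold between the genotypes was 1 in edgeR, 3 in the DESeq2 Wald test, and 1 or 2 when 1 library was left out. With no filter on low counts it was Malat1 in place of Dclk3. For the members it was 0 in all 16 alternatives.

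The sign of the log2 fold changes rested on WT replicate 4. Leaving out 1 library at a time, they ran from -3.68 to 1.07 for Ttr, -1.93 to 0.34 for Kl, -3.11 to 0.43 for Folr1, -3.19 to 0.12 for Aqp1, -2.72 to 0.59 for Kcnj13, -3.51 to 1.04 for Kcne2, -2.24 to 0.996 for Prlr, -0.81 to 0.37 for Enpp2, -0.73 to 0.37 for Igf2, -0.81 to 0.75 for Slc13a4 and -0.47 to -0.20 for Car12, with the value above 0 always the one without WT replicate 4. Without WT replicate 4 and KO replicate 1 they were 0.33 for Ttr, 0.13 for Kl, 0.21 for Kcnj13, 0.45 for Kcne2, 0.96 for Prlr, 0.26 for Enpp2, 0.39 for Igf2 and 0.83 for Slc13a4, while Folr1 and Aqp1 were below 0. With the log2 CPM of Ttr as a covariate they were 0.014 for Kcne2, 0.27 for Prlr, 0.015 for Enpp2, 0.070 for Igf2 and 0.39 for Slc13a4, but 24 of the 32 genes were below 0, among them Aqp1 at -0.66, Folr1 at -0.45, Car12 at -0.27, Kl at -0.20 and Kcnj13 at -0.18. The median of the 32, which include Ttr itself, was -0.19, against 0.0028 over all genes. In this edgeR fit 3 of the 32 had an unadjusted p below 0.05, against 867 of 16511 genes, and 0 passed the adjusted threshold. The replicate block gave -0.23 for Ttr and 0.063 for Slc13a4, with 0 members past the threshold. Same-numbered libraries correlated by 0.023, 0.067, 0.074 and -0.30 in their deviations from the group means. These values gave no sign that the numbers pair the samples, but with 4 libraries in each group they cannot exclude it. Weighting the straight line by 1 over the fitted level changed the background share by at most 15.7 percentage points, with 9, 9, 12 and 7 genes in the 4 ranges of share. Leaving out WT replicate 4, a setting chosen after seeing the data, changed these counts far more, as given with them. Genes with under 10 counts in most libraries, such as Slco1a5, Wfdc2, Steap1 and Krt8, are limited by depth.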
